A study of Mus musculus with 3 samples.

Results

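The subject of this account is the effect of 0.6% dimethyl sulfoxide (DMSO) on MC3T3-E1 cells that were already in osteogenic medium. The genes described are those whose signal differed by 1.5-fold or more between the array with DMSO and the array without it. There were 282 such genes among the 18193 genes with a probe set of their own. Of these 282, 40 were higher with DMSO and 242 were lower.

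MC3T3-E1 is a clonal, immortal preosteoblast line from the calvaria, the flat bone of the skull, of C57BL/6 mice. Cells were kept at 37 °C for 3 days in 1 of 3 media, each built on MEM α with 10% fetal bovine serum. Normal medium held nothing further. Osteogenic medium added 10 mM beta-glycerophosphate, which donates phosphate, and 150 µM ascorbic acid 2-phosphate, a long-lived form of vitamin C. The last culture had osteogenic medium and 0.6% DMSO, a polar solvent used to dissolve drugs and to freeze cells. Per the labels, staining with alizarin red S, a dye that binds calcium deposits, was stronger with 0.6% DMSO. RNA from 1 culture of each kind was read on 1 Affymetrix array of the mouse genome. The spread between cultures was therefore not measured, no test could be made, and a value for each array is all that exists. The line is 1 clone, so the values describe that clone at day 3.

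Osteoblasts lay down a matrix of type I collagen and then load it with calcium phosphate. Vitamin C allows collagen to be hydroxylated and folded, and the matrix enzyme alkaline phosphatase frees phosphate for crystal growth. BMP and Wnt signals drive cells along this path, and the transcription factors Runx2 and Sp7 carry them into it. Late osteoblasts and osteocytes add acidic proteins such as Dmp1, while transglutaminases and lysyl oxidases bind the matrix proteins to each other.

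The cells carried osteoblast transcripts on every array. Values are log2 signals, and where 3 are given for a gene they are those of normal medium, of osteogenic medium without DMSO and of the culture with DMSO, in that order. Sp7 stood at 6.42, 7.30 and 7.72, and Ibsp, which encodes bone sialoprotein, at 7.998, 10.17 and 10.56. Col1a1, the main chain of type I collagen, was at 12.28, 12.32 and 12.50. The late osteocyte genes Mepe and Sost were below the floor of 3.54 on all 3 arrays, where the floor is the median of all probe sets. Runx2, Spp1 and Bglap were not analysed here. Of markers of other cell types, 13 of 21 macrophage genes, 10 of 14 endothelial genes and 15 of 22 skeletal muscle genes were below the floor on both compared arrays. So were 30 of 50 epithelial, 17 of 50 adipocyte and lipid and 12 of 32 cartilage and tendon genes. Of all 18193 genes, 11423 were above it on 1 or both. RNA integrity, taken as the Actb signal at the 3' end minus that at the 5' end, was 0.20 without and 0.18 with DMSO, and the 18 hybridisation control probe sets differed by a median of -0.03.

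Genes were compared as log2 signal with DMSO minus log2 signal without it, after values under the floor had been raised to the floor. Measured genes are the 11423 that exceeded the floor on 1 or both of the compared arrays. A gene is said to have risen or fallen when it passed 1.5-fold, which is 0.585 on the log2 scale. By that rule 0.35% of measured genes rose and 2.12% fell, and every count of members below is to be read beside these shares. Of all changed genes, 85.8% fell. The median difference over all measured genes was 0, and 3334 of them (29.2%) had equal values on both arrays. Counts of list members above or below 0 are to be read beside these 2 values. The shares of all measured genes on each side of 0 are not given here.

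The rises were small, with a median of 0.70 and a furthest value of 1.74, and 6 of the 40 reached 2-fold. Of the 242 falls, 63 reached 2-fold. Their median was -0.82 and the furthest was -3.61. For 18 falls and 3 rises, 1 of the arrays was under the floor, so that the difference is a lower limit of the change, written "at least". Falls were more frequent among dim genes. They made up 2.89% of 2318 genes with a mean log2 signal between 3.54 and 5, 1.56% of 3782 genes between 7 and 9, and 0.688% of 1454 genes above 9. The corresponding shares of rises were 0.475%, 0.344% and 0.0688%.

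**Figure D1:**
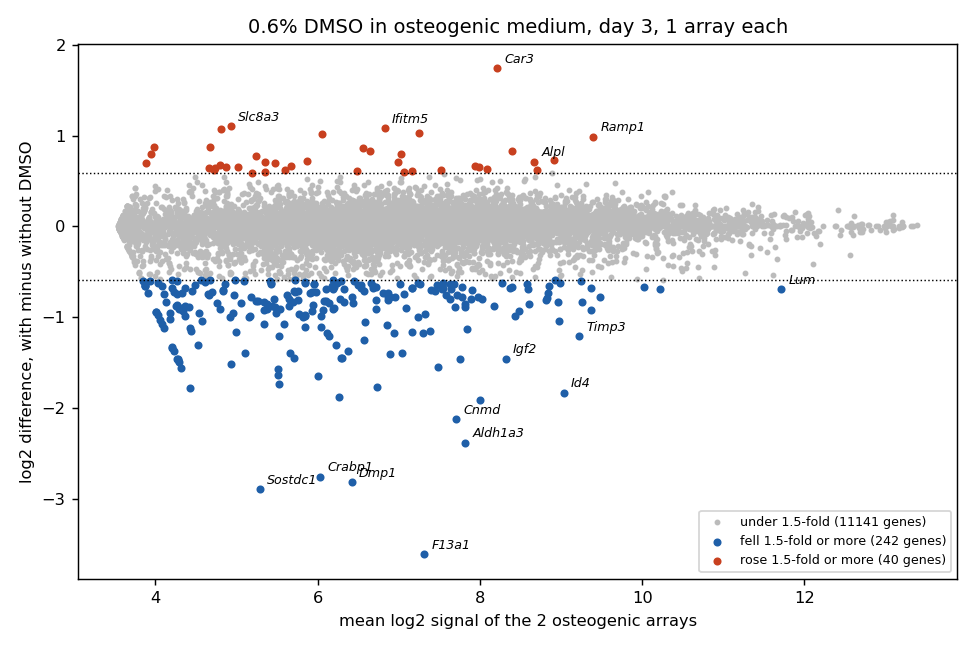
Each point is a measured gene, with the mean log2 signal of the 2 osteogenic arrays on the x axis and the log2 difference, with minus without DMSO, on the y axis, and dotted lines mark 1.5-fold. The 242 falls (blue) reach to -3.61 and the 40 rises (red) to 1.74, and the grey points are the 11141 genes under 1.5-fold.

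Many members lay close to the threshold, as 18 of the 40 rises and 63 of the 242 falls were within 0.1 of it. Just inside were Castor2 (0.59), Pcsk6 (0.60) and Kbtbd11 (0.60) among the rises and Trim30d, Fkbp1b and Fosl1 (each -0.59) among the falls. Just outside were Scara3 (0.58), Fzd5 (0.58), Bambi (0.55), Fst (-0.58), Irak2 (-0.58) and Myl9 (-0.58). These genes at the edge were named because of their place and not for their function.

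**Figure D2:**
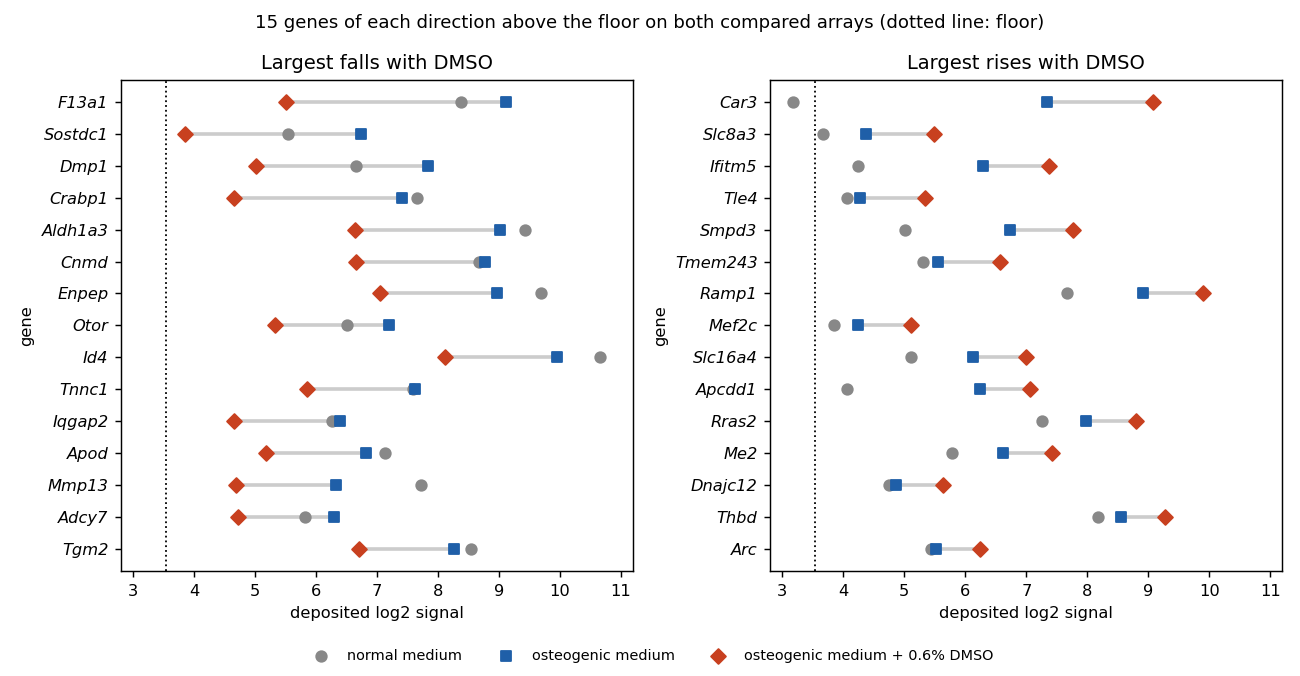
Log2 signal on the x axis of the 15 largest falls (left) and 15 largest rises (right) among genes above the floor on both compared arrays, with 1 symbol for each of the 3 arrays and a dotted line at the floor of 3.54. The DMSO symbol lies to the left of both other arrays for all 15 genes of the left panel, and to the right of both for all 15 of the right panel.

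The genes that rose included several that act where mineral is formed. On the list of osteoblast matrix and mineralization genes, 5 of 22 measured members rose, 4 fell and 13 did neither, with a median of 0.08. Alpl, the alkaline phosphatase that frees phosphate at the cell surface, read 6.61, 8.31 and 9.02. It was 1.64-fold higher with DMSO than without. Smpd3, a sphingomyelinase that mice need for bone mineral, read 5.01, 6.74 and 7.76, a 2.04-fold rise. Its other probe sets rose by 0.70 and 1.02. Ifitm5, a membrane protein made by osteoblasts, read 4.24, 6.28 and 7.37 and rose 2.12-fold. For these 3 genes the DMSO array was the highest and normal medium the lowest.

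Car3, a carbonic anhydrase best known from muscle and fat, had the largest rise. It was under the floor in normal medium, at 7.34 in osteogenic medium and at 9.08 with DMSO, a 3.34-fold rise, and its second probe set rose by 1.04. Panx3, a channel of osteoblasts and growth plate chondrocytes that lets ATP and calcium pass, read 6.59, 8.40 and 9.02 and was 1.54-fold higher with DMSO. The second probe set of Panx3 rose by 0.64. The list members Ibsp and Pth1r, the receptor for parathyroid hormone, were higher by 0.38 and 0.39, short of 1.5-fold. So was Sp7, by 0.41.

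Dmp1 went the other way by a wide margin. It encodes an acidic phosphoprotein of the bone matrix that binds calcium and is typical of late osteoblasts and osteocytes. Its signal was 6.65 in normal medium, 7.83 in osteogenic medium and 5.01 with DMSO. The fall was 7.03-fold, the DMSO array was also below normal medium, and the other probe sets of Dmp1 fell by 2.63 and 1.76. Phex, the peptidase that works beside Dmp1 in phosphate control, read 4.70 without and 4.63 with DMSO.

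Mmp13, the collagenase of osteoblasts and hypertrophic cartilage, read 7.72, 6.32 and 4.69, so that it was highest in normal medium and 3.10-fold lower with DMSO than without. Ecm1, a secreted glycoprotein that binds other matrix proteins, fell from 8.41 to 7.28, and Tnn, the tenascin of periosteum and bone, fell from 6.08 to 5.21. The falls of the mineral list were thus a late acidic protein, a collagenase and 2 matrix glycoproteins, and its rises were 2 enzymes of phosphate and sphingolipid release, a carbonic anhydrase, a membrane protein and a channel. Of the osteocyte list, 10 genes were measured, Dmp1 fell and Mef2c rose.

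Transcription factors of the osteoblast mostly stayed under 1.5-fold. Of 36 measured, 1 rose and 2 fell. Mef2c, a MADS box factor that osteocytes use to switch on Sost, read 3.84, 4.24 and 5.11. It was 1.83-fold higher with DMSO and its other probe sets rose by 0.74 and 0.75. Etv5, an ETS factor downstream of FGF signals, fell from 6.04 to 5.25, with another probe set at -0.26. Fosl1, an AP-1 subunit that bone-forming cells use for matrix genes, fell from 4.97 to 4.38, which is at the threshold. Sost, the target named beside Mef2c, was under the floor on all 3 arrays.

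Genes of a calcium exchanger, a receptor partner and a receptor were among the rises. Slc8a3, a plasma membrane exchanger of sodium for calcium, read 3.66, 4.37 and 5.48 and rose 2.15-fold. Ramp1, which joins the calcitonin receptor-like receptor to form the receptor for CGRP, read 7.67, 8.90 and 9.89 and rose 1.98-fold. The other probe sets of Ramp1 differed by 0.12 to 0.63. Calcrl, which encodes the calcitonin receptor-like receptor, read 1.75 on every array, under the floor of 3.54. Whether these cells form a receptor for CGRP was not tested. Ptgfr, the receptor for prostaglandin F2α, read 8.37, 7.66 and 8.32, so that with DMSO it was 1.58-fold above osteogenic medium and close to normal medium. The fall of Ptgs2, the inducible enzyme of prostaglandin synthesis, was from 6.01 to 5.25, a 1.69-fold change, with its second probe set at -0.91.

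Among 46 measured Wnt genes, 4 rose and 4 fell, and the median was 0. With all probe sets of a gene averaged, 1 rose and 3 fell, and Tle4, Apcdd1 and Wnt4 were under 1.5-fold. With the floor at the 60th percentile, 4 rose and 2 fell. The rises included 3 genes that restrain Wnt signals. Tle4, a corepressor that binds TCF factors, read 4.05, 4.27 and 5.34 and rose 2.11-fold. Apcdd1, a membrane inhibitor of Wnt, read 4.06, 6.23 and 7.07 and rose 1.78-fold, but its other probe sets ran from -0.04 to 0.88. Notum, the secreted enzyme that removes the lipid from Wnt proteins, read 5.19, 6.85 and 7.46 and rose 1.52-fold. The other rise was a ligand, Wnt4, at 5.16, 5.34 and 6.01, with another probe set at 0.29.

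The falls on this list were R-spondins, a ligand and a Wnt target. Sostdc1, an antagonist of BMP and Wnt signals placed on the BMP list, fell too (-2.89). Rspo2, an R-spondin that keeps Wnt receptors on the cell surface, read 7.07, 6.88 and 5.57 and fell 2.47-fold, though its second probe set was at -0.04. Rspo1, its relative, fell 1.68-fold from 4.48 to 3.73. The ligand Wnt9a read 4.99 in both media without DMSO and 3.87 with it. Ccn5, a matricellular Wnt target, read 6.93, 6.11 and 5.40. Outside the list, the scaffold genes Dact1 and Dact2, which modulate Wnt and TGF-beta receptors, fell from 7.23 to 6.49 and from 6.65 to 5.76, and the other probe sets of Dact2 ran from -0.32 to 0.14. Tle2, a corepressor of the same family as Tle4, fell from 6.51 to 5.68. Dact1, Dact2 and Tle2 were picked after their values were seen.

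In the BMP and TGF-beta list, 1 of 41 measured genes rose and 6 fell, with a median of 0. Bmper, which binds BMPs outside the cell, was under the floor in normal medium and read 4.99 and 5.70 without and with DMSO. Of the antagonists, Sostdc1, which blocks BMPs and the Wnt co-receptor Lrp6, read 5.54, 6.74 and 3.85 and fell 7.41-fold. Its second probe set fell by 1.90. Grem1, a secreted BMP trap, fell from 5.87 to 5.00. Fst, which binds activin, was just short of the threshold.

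Id4, a helix-loop-helix inhibitor and BMP target that favours osteoblast over fat differentiation, read 10.65, 9.95 and 8.12. The fall was 3.55-fold, and the other probe sets of Id4 fell by 1.97 and 1.72. The related genes did not fall: Id1 differed by 0.10, Id2 by 0.13 and Id3 by 0.47. On the TGF-beta side, the ligand Tgfb2 fell from 7.01 to 6.36, its target Tgfbi from 8.14 to 7.25, and the latent TGF-beta binding protein Ltbp2 from 5.27 to 4.68. The ligand Tgfb1 was higher by 0.38 and Bmp4 by 0.52.

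Retinoic acid genes had the highest share of falls of the lists with 10 or more measured members, 30.8%, with epithelial genes next at 30.0%. The lists were written with earlier results of these data known, so their order is only a description. Retinoic acid is made from vitamin A by retinaldehyde dehydrogenases and carried by small binding proteins. Of 13 measured genes, 4 fell and none rose and the median was -0.04. With the floor at the 60th percentile, 3 fell. Crabp1, a carrier of retinoic acid in the cytoplasm, read 7.65, 7.40 and 4.65 and fell 6.74-fold. Crabp2, which delivers it to the receptors, read 8.99, 8.94 and 8.25.

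Of the enzymes that make retinoic acid or its precursor, some fell and others did not. Aldh1a3 read 9.43, 9.01 and 6.63, a fall of 2.38 on the log2 scale, and its other probe sets were at -2.08 and -1.88. Aldh1a1 read 4.19 in both media without DMSO and dropped under the floor with it, at least 1.57-fold lower. Adh1, an alcohol dehydrogenase that can oxidise retinol, and Aldh1a7, a close relative of Aldh1a1, fell from 6.55 to 5.72 and from 5.83 to 4.92. Probe sets of relatives this close may share sequence, which was not tested. The retinol and alcohol dehydrogenases Rdh10, Rdh11, Adh5 and Adh7 differed by 0.08, 0, 0 and -0.08. The receptors Rara and Rarg differed by 0 and 0.03, and the breakdown enzymes Cyp26a1 and Cyp26b1 by -0.32 and -0.27. All of these retinoid falls left the DMSO array as the lowest of the 3.

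Matrix crosslinking was led by F13a1, the gene with the largest fall of all. It encodes the A subunit of coagulation factor XIII, a transglutaminase that osteoblasts also make and that links fibronectin and collagen. Its signal was 8.38 in normal medium, 9.11 in osteogenic medium and 5.51 with DMSO, a 12.2-fold fall, and no second probe set was above the floor. Tgm2, the tissue transglutaminase, read 8.55, 8.25 and 6.71 and fell 2.92-fold, with other probe sets between -1.50 and -0.74. Tgm3 was the only other measured transglutaminase and differed by 0.01. P3h2, a prolyl 3-hydroxylase of collagen, fell from 6.60 to 5.49. Those 3 were the falls among 24 measured crosslinking and collagen processing genes, of which none rose.

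Col1a1 and Col3a1, abundant chains of the collagen fibril, differed by 0.18 and -0.09. Of 29 measured collagen genes, 3 fell and none rose, with a median of -0.08. Col18a1 and Col15a1, the collagens of basement membranes whose ends give endostatin-like fragments, fell from 6.17 to 5.36 and from 7.34 to 6.56. Col5a3, a minor fibril chain, fell from 7.17 to 6.44. Each of these falls was between 1.66-fold and 1.76-fold.

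Noncollagenous matrix proteins fell in larger numbers, with 12 of 63 measured members down, 2 up and a median of -0.03. Sparcl1, an antiadhesive relative of osteonectin, read 6.89, 7.02 and 5.57 and fell 2.73-fold. Mfap5 and Fbln2, parts of the elastic fibre, read 7.39, 6.75 and 5.54 and 9.77, 8.92 and 7.93. Lum and Aspn are small leucine-rich proteoglycans that bind collagen fibrils, and they fell from 12.06 to 11.37 and from 10.35 to 9.68. Has2, which makes hyaluronan, fell from 5.85 to 5.06, with its second probe set at -1.23.

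The other falls on that list were Spon2, Edil3, Ccn2, Vit, Otor and Tnn. Another probe set of Spon2 was at -0.14. Smoc2, a calcium-binding matricellular protein, rose from 5.13 to 5.83, and Abi3bp was under the floor without DMSO and at 4.34 with it, at least 1.74-fold higher. In normal medium Abi3bp stood at 4.52.

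Extracellular proteases and their inhibitors gave 9 falls and 1 rise among 53 measured genes, with a median of -0.12. Enpep, the glutamyl aminopeptidase that trims angiotensin II, read 9.69, 8.96 and 7.05 and fell 3.74-fold. Agt, the angiotensin precursor, fell from 6.54 to 5.92. Timp3, a matrix-bound inhibitor of metalloproteinases, read 10.19, 9.82 and 8.62, and its other probe sets were between -1.25 and -1.07. Besides Mmp13, the proteases Adamts6, Mmp19 and Prss23 and the carboxypeptidase-like Cpxm2 fell, with differences of -0.99, -0.61, -0.59 and -1.08. The rise was Hpse, the heparanase that cuts heparan sulfate, under the floor without DMSO and at 4.41 with it, at least 1.83-fold higher.

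Of the list of growth factors and receptors, 9 of 47 measured genes fell and none rose, with a median of -0.26 and 32 members below 0. Insulin-like growth factor (IGF) genes were among them. In a set of IGF ligands, receptors, binding proteins and their proteases, put together after the values were seen, 6 of 12 measured genes fell and 6 did neither. Igf2 read 8.51, 9.04 and 7.59 and fell 2.74-fold. Igf1 read 9.95, 9.18 and 8.53 and fell 1.58-fold, with other probe sets between -0.59 and -0.37. The binding proteins Igfbp2 and Igfbp5 fell from 9.29 to 8.67 and from 7.98 to 7.29, the latter with another probe set at -0.07. Pappa and Pappa2, the proteases that cut binding proteins and free IGF, fell from 5.65 to 4.66 and from 9.86 to 9.09. The receptors Igf1r and Igf2r differed by -0.20 and 0.19, the binding proteins Igfbp4, Igfbp6 and Igfbp7 by -0.31, -0.51 and -0.39, and Stc2, an inhibitor of Pappa, by 0.

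Other growth factor genes that fell were the ligands Fgf7, Vegfd, Ereg and Angpt4 and the neurotrophin receptor Ntrk3. Fgf7, the keratinocyte growth factor of mesenchymal cells, read 9.90, 9.20 and 8.48. Angpt4, a ligand of the Tie2 receptor, read 4.48, 5.57 and 4.41, so that with DMSO it was back near normal medium. Ntrk3 went under the floor, at least 2.81-fold lower, but its second probe set was at 0.11.

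Genes of the actin cytoskeleton and of the factors YAP and SRF, which respond to cell tension, gave 8 falls and no rise among 47 measured members. The median was -0.11 and 37 members were below 0. Ankrd1, a cardiac and wound-response YAP target, read 8.44, 7.88 and 6.71 and fell 2.25-fold, with its second probe set at -1.32. Ccn2, the connective tissue growth factor, read 9.03, 9.21 and 8.43, and the kinase Nuak2, also a YAP target, fell from 6.15 to 5.53.

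Some contractile members of the list fell and others did not. Mylk, the kinase of myosin light chain, read 9.76, 9.68 and 8.84. Actg2, a smooth muscle actin, fell from 10.56 to 9.87 and Fhl1, a LIM protein of muscle, from 8.61 to 7.73. Acta2 and Tagln, abundant smooth muscle genes of this list, differed by -0.09 and -0.21 and are not among the falls, and Myl9, a myosin light chain, stood just outside the threshold at -0.58.

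Of 4 measured genes of troponin, the calcium-sensing complex of striated muscle, 3 fell and Tnni1 was equal on both arrays. Tnnc1, the slow and cardiac troponin C, read 7.59, 7.62 and 5.85 and fell 3.41-fold. Tnnc2 fell from 6.87 to 6.19, and Tnni2 was at least 1.92-fold lower. Tnni2 was not among the falls with the floor at the 60th percentile or with all probe sets averaged. The skeletal muscle list holds the 3 that fell, and 15 of its 22 members were below the floor. At the membrane, Cav1, the coat protein of caveolae, read 10.44, 9.84 and 8.91, and Cavin2, which shapes the same pits, fell from 6.85 to 6.02. Cavin1 and Cavin3 differed by 0.03 and -0.08, and Cav2 was lower by 0.55. The sets of troponin and caveolar genes were put together after the values were seen.

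Few epithelial genes were measured, and 30 of the 50 with a probe set were below the floor. Of the 20 measured, 6 fell and none rose. With the floor at the 60th percentile 4 fell, and with all probe sets of a gene averaged 3 fell. Trp63, the p63 factor of basal epithelium, read 8.26, 8.48 and 7.02 and fell 2.75-fold, although its other probe sets ran from -0.94 to 0. Cldn1, a tight junction claudin, and Krt14, the basal keratin, read 5.32 and 5.10 in osteogenic medium and were under the floor with DMSO. They were at least 3.43-fold and at least 2.95-fold lower. Cdh1, which encodes E-cadherin, read 3.87, 4.87 and 3.55, and the ETS factor Ehf fell from 4.81 to 3.87.

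Cartilage and tendon genes gave 3 falls and 1 rise among 20 measured members, with a median of 0. Cnmd, chondromodulin, an inhibitor of vessel growth in cartilage, read 8.68, 8.77 and 6.65 and fell 4.35-fold. Tnmd, tenomodulin, its relative in tendon, fell from 4.70 to 3.83. Otor, a small secreted protein of the cochlea and cartilage, read 6.50, 7.20 and 5.33 and fell 3.66-fold. The rise was Panx3, described above.

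Adhesion genes of the cell surface gave 7 falls and 1 rise among 38 measured members, with a median of -0.16. Thy1, a surface glycoprotein of mesenchymal cells, read 6.92, 6.54 and 5.55. Cd200, a ligand that quiets myeloid cells and acts in osteoclast fusion, read 5.76, 5.69 and 4.17 and fell 2.86-fold. Vcam1, the adhesion partner of leukocyte integrins, fell from 8.89 to 8.26, with other probe sets between -0.54 and -0.29. Cd34, Cd80, Pcdh19 and the integrin chain Itga6 fell as well. The rise was Cd24a, from under the floor to 4.24, at least 1.62-fold higher.

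Cytokine and inflammatory genes gave 6 falls and no rise among 39 measured members, with a median of -0.22 and 32 members below 0. Ackr3, the scavenger receptor of the chemokine CXCL12, read 7.09, 7.06 and 5.69 and fell 2.58-fold. The chemokines Ccl2 and Cx3cl1 fell from 4.64 to 3.90 and from 7.02 to 6.34, the latter with another probe set at -0.37. Il33, an alarmin of the interleukin 1 family, was under the floor in normal medium, at 4.62 in osteogenic medium and under the floor again with DMSO, at least 2.11-fold lower.

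Genes of interleukin 1 and interleukin 6 family signalling were divided. In a set put together after the values were seen, 8 of 17 measured genes fell, none rose and 9 did neither. The oncostatin M receptor Osmr read 7.71, 7.74 and 7.05, with another probe set at -0.15, and the feedback inhibitor Socs3 read 8.28, 8.16 and 7.39, with other probe sets at -0.80 and -0.68. Outside the list and picked after their values were seen, Il1rap, Il18rap, Tifa, Nfkbiz and Clcf1 fell, with differences between -0.95 and -0.61. Other probe sets stood at -0.36 and -0.29 for Clcf1 and at -0.25 for Nfkbiz. Clcf1 was not among the falls with the floor at the 60th percentile or with all probe sets averaged. Il18rap was not among them with that floor. Il6st, the shared receptor chain of the interleukin 6 family, and Lifr differed by -0.05 and -0.01, and the receptors Il1r1 and Il6ra by -0.12 and 0.06. Of 32 measured interferon genes, Ifitm1 and Gbp6 fell and 27 were below 0, with a median of -0.24. Gbp6 went under the floor, at least 1.66-fold lower. It was not among the falls with the floor at the 60th percentile or with all probe sets averaged. With that higher floor 1 interferon gene fell and the median was -0.12.

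Regulators of osteoclasts and prostaglandins gave 4 falls and 1 rise among 19 measured genes, with a median of -0.26. The falls were Cd200, Ptgs2, Ccl2 and Vdr, and the rise was Ptgfr. Vdr, the vitamin D receptor, read 6.73, 6.45 and 5.76, and its second probe set fell by 0.62. Tnfrsf11b, the decoy receptor osteoprotegerin, read 8.62 without and 8.70 with DMSO.

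Second messenger genes were among the falls. Adcy7, an adenylyl cyclase that makes cyclic AMP, read 5.81, 6.29 and 4.72 and fell 2.96-fold. Without probe sets ending in _x_at or _s_at, Adcy7 was not among the falls. A dimmer probe set of Adcy7 was lower by at least 0.51, and a further one was under the floor on both arrays. Pde4b, which breaks cyclic AMP down, fell from 4.81 to 4.16, and Rapgef3, an exchange factor that cyclic AMP opens, from 5.04 to 4.29 with another probe set at 0. Prkg2, a cyclic GMP kinase of growth cartilage, read 7.73, 8.42 and 7.63, and Rgs2, a brake on G proteins, was at least 2.04-fold lower. In the list of G protein-coupled and hormone receptors and their partners, 6 of 51 measured genes fell, 2 rose and the median was -0.11. With all probe sets averaged, none of its members rose and 3 fell.

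Channels and carriers moved in both directions. Of 43 measured channel and calcium genes, 5 fell and 2 rose, and with all probe sets averaged 4 fell and none rose. Aqp1, a water channel, read 9.48, 9.03 and 8.17 and fell 1.81-fold, and S100b, a calcium-binding protein, read 7.21, 7.59 and 6.19. Kcnk2 and Kcnk5, potassium leak channels, fell, the former as a bound. Of 43 solute carriers, 3 fell and 1 rose. Slc26a2, the sulfate carrier that cartilage needs, fell from 7.81 to 7.09, Slc26a7, an anion exchanger, was at least 2.58-fold lower, and the glutamate carrier Slc1a3 fell from 7.28 to 6.50. Slc16a4, a monocarboxylate carrier, read 5.11, 6.13 and 6.997 and rose 1.83-fold.

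The metabolic genes that fell were spread over several lists. Apod, a lipocalin that binds lipids, read 7.14, 6.82 and 5.18 and fell 3.12-fold. Elovl6, a fatty acid elongase, fell from 8.59 to 7.97, with its second probe set at -0.36. Apod, Elovl6 and the preadipocyte factor Zfp423 were the falls among 33 measured adipocyte and lipid genes. With all probe sets averaged, 2 of that list fell. Hsd11b1, which reactivates glucocorticoids, read 5.76, 6.13 and 4.92. It was chosen after its values were seen, like G0s2, an inhibitor of fat breakdown, which fell 2.75-fold from 5.01 to 3.55.

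Cbr2, a carbonyl reductase, and Aldh1a7 were the falls among 41 measured detoxification genes. Cp, the copper carrier ceruloplasmin, read 9.24, 9.37 and 8.55 and was the fall among 18 metal genes. The enolases of neurons and muscle, Eno2 and Eno3, fell from 4.81 to 3.93 and from 7.54 to 6.64. Of 5 enolase genes sought, 3 had a probe set of their own. Eno2 was the fall among 26 measured glycolysis genes, of which none rose, with a median of 0.009. With the floor at the 60th percentile, none of these 26 fell. Hspa1b, an inducible heat shock protein, fell from 8.24 to 7.55 and was the only 1 of 21 measured cytosolic chaperones past 1.5-fold. Cth, which makes cysteine, read 7.25, 6.27 and 5.54 and was the only fall among 30 measured ATF4 and amino acid genes.

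Of the neural list, with 6 measured genes, Tubb3, a neuronal tubulin, rose from 5.28 to 5.91 and S100b fell.

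Early response and developmental factors changed in small numbers. Klf2, a Krüppel-like factor known from flow-exposed endothelium, read 6.95, 7.60 and 8.27 and rose, as did the neuronal early gene Arc, from 5.51 to 6.23. Dusp4, a phosphatase of MAP kinases, fell from 4.69 to 3.67 and the kinase Sgk1 from 8.37 to 7.59. Of 32 measured early response genes 2 rose and 3 fell, with a median of -0.003. With the floor at the 60th percentile 1 of them fell, and Dusp4 was not among the falls. The homeobox factor Irx1 fell from 7.88 to 7.19, and Hmga2, a chromatin protein of growing tissue, from 6.85 to 6.21. Of 58 measured developmental factors 1 rose and 2 fell, with a median of 0.

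Several pairs of members encode a ligand and its receptor or an enzyme and its partner. Gas6, the ligand of the receptor kinase Axl, read 10.20, 9.71 and 9.03, with another probe set at -0.08, and Axl itself read 8.35, 8.11 and 7.44. Sphk1, which makes sphingosine 1-phosphate, fell from 8.04 to 7.23 with another probe set at -0.08, while Smpd3 of the same lipid pathway rose. Of 20 measured sphingolipid genes, these were the 1 fall and the 1 rise, 18 did neither and the median was 0. The pairs and this set were picked after their values were seen.

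Further rises on no list were Tmem243 (5.54 to 6.57), Rras2, a Ras-related GTPase (7.98 to 8.81), the malic enzyme Me2 (6.62 to 7.42), Dnajc12, a cochaperone (4.86 to 5.63), and thrombomodulin, Thbd (8.55 to 9.28). The second probe set of Rras2 rose by 0.73, and those of Me2 ran from 0.25 to 0.43. Among falls on no list, Iqgap2, a scaffold that binds Cdc42 and actin, read 6.26, 6.39 and 4.66 and fell 3.32-fold, with its second probe set at -0.88. Akr1c14, a steroid reductase, and Tafa5, a secreted brain protein, were at least 2.77-fold and at least 2.74-fold lower.

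Of the lists with at least 10 measured members, these held none past 1.5-fold: DNA replication (41 measured), mitosis (50), p53 targets (23), oxidative phosphorylation (30), cholesterol synthesis (20), ER chaperones (24), guidance molecules (39), Notch and Hedgehog genes (19) and housekeeping genes (14). The same held for 8 measured macrophage and 4 measured endothelial genes. Within 1.5-fold, 39 replication genes and 45 mitosis genes were above 0, with medians of 0.16 and 0.18, and 21 p53 genes were below 0, with a median of -0.15. The cyclin Ccne2 was at 0.49 and the proliferation marker Mki67 at 0.13. In all, 22 of the 40 rises and 113 of the 242 falls were on at least 1 of the 42 lists.

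**Figure D3:**
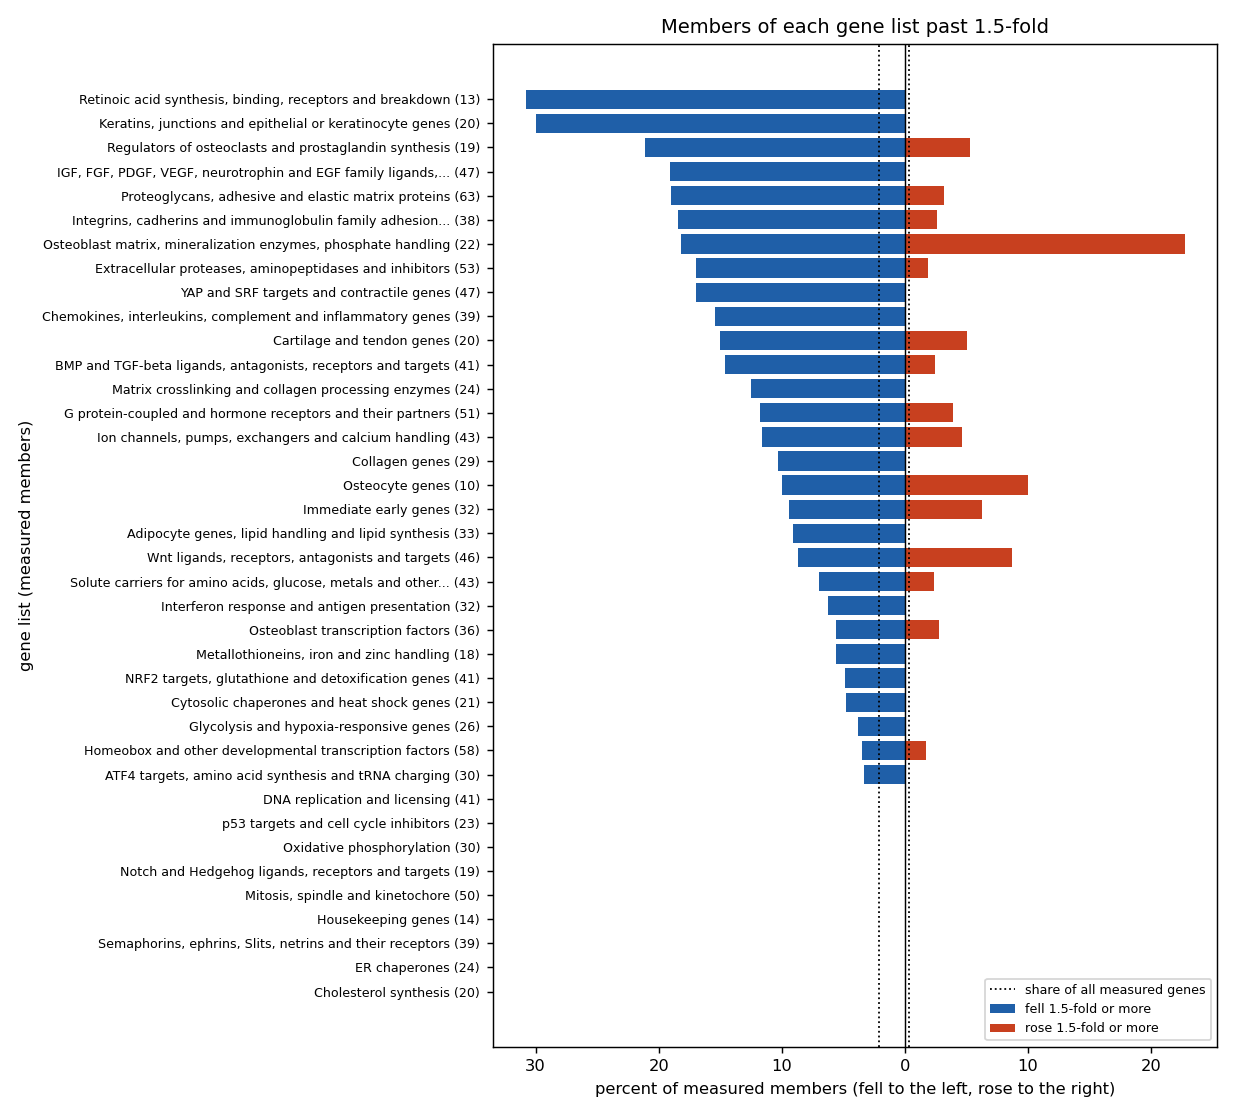
Percent of measured members of each gene list that fell (blue, to the left) or rose (red, to the right) 1.5-fold or more, for the lists with at least 10 measured members, whose number stands in parentheses, while dotted lines mark the shares of all measured genes, 2.12% and 0.35%. Retinoic acid genes have the longest bar to the left (30.8%), just ahead of epithelial genes (30.0%), and osteoblast matrix and mineralization genes the longest to the right (22.7%).

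The only repeat within an array is a further probe set for the same gene. Of the 40 rises, 18 had a second probe set above the floor on both arrays, of which 17 had the same sign and 8 also passed 1.5-fold. The opposite sign was that of Eepd1 (0.64 against -0.07). Of the 242 falls, 94 had a second probe set. The sign was the same for 90, the values were equal for 3, and 1 was opposite, Ntrk3, and 56 of the second probe sets also passed 1.5-fold. The median of the second probe sets was 0.56 for rises and -0.69 for falls, against 0.68 and -0.80 for the probe sets used. Across 5223 genes the difference between such pairs had an SD of 0.15. That spread covers probes and transcript forms of 1 RNA sample and not a second culture.

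With all probe sets of a gene averaged in place of the probe set with the highest mean, 20 of the 40 rises were under 1.5-fold. Among them were Slc8a3, Tle4, Tmem243, Ramp1, Mef2c, Slc16a4, Apcdd1, Me2, Panx3 and Wnt4. Of the falls, 78 were under 1.5-fold with that average, Cldn1, Krt14, Ntrk3, Wnt9a, Pappa, Fbln2, Fhl1, Igf1, Igfbp5, Vcam1, Axl and Gas6 among them. The rises of Car3, Ifitm5, Smpd3, Alpl, Bmper, Notum, Klf2, Smoc2, Rras2 and Thbd and the falls of F13a1, Sostdc1, Dmp1, Crabp1, Aldh1a3, Cnmd, Enpep, Otor, Id4, Tnnc1, Mmp13 and Tgm2 passed 1.5-fold in all 6 other ways of processing that were tried.

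**Figure D4:**
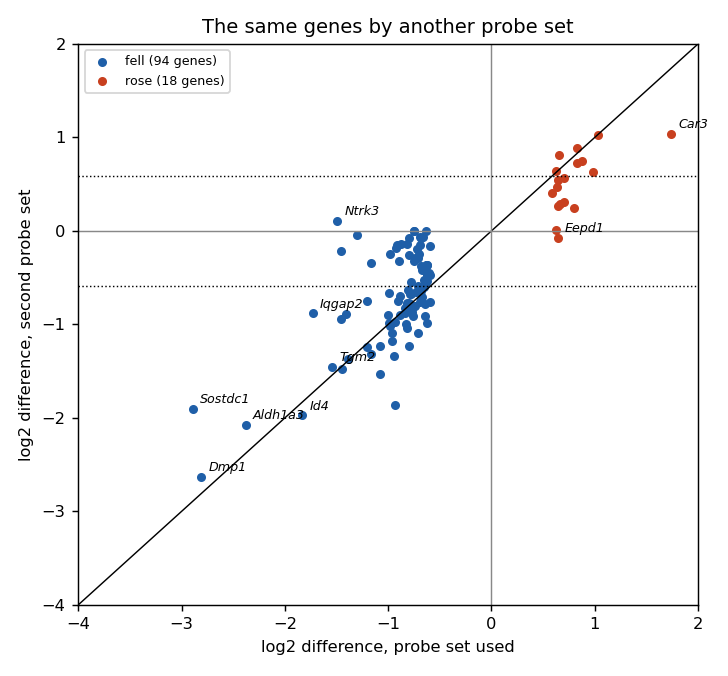
Log2 difference, with minus without DMSO, of the probe set used (x axis) and of a second probe set of the same gene (y axis) for 94 falls (blue) and 18 rises (red), where the diagonal marks equal values and dotted lines mark 1.5-fold on the y axis. Dmp1, Aldh1a3 and Id4 lie near the diagonal, and Ntrk3 and Eepd1 lie across 0.

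The letters around transcript starts of the members were read from RefSeq promoter windows of build GRCm38.p6. These run from 250 bases before to 50 after a transcript start. Windows were found for 173 of the fallen genes (244 windows), 27 of the risen genes (36 windows) and 9254 of the measured genes (11799 windows). The letters TGACTCA, those of an AP-1 site, were sought on both strands. They were in 23 windows of fallen genes (9.43%), in none of the 36 windows of risen genes and in 3.6% of windows of all measured genes. By gene, that was 20 fallen genes (11.6%) beside 4.38% of all measured genes. Some of these windows overlap, as a gene can have several starts, and a start can lie inside the gene. The base composition differed too, with a median GC content of 55.8% in windows of fallen genes, 65.2% in those of risen genes and 61.0% in all. The part of composition in the share with these letters was not tested.

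The AP-1 stretches of Mmp13, Adcy7 and Ecm1 are shown because these 3 fell furthest among the genes with the letters and because Mmp13 is a textbook AP-1 target. Capitals mark TGACTCA or, on the other strand, TGAGTCA. Each stretch is written in the direction of the gene and ends no later than the transcript start. That of Mmp13 is chr9:7272439-7272513 on the plus strand, that of Adcy7 is chr8:88289002-88289065 on the plus strand and that of Ecm1 is chr3:95739587-95739673 on the minus strand. The letters begin 35, 24 and 64 bases before the start. The stretches of Adcy7 and Ecm1 belong to starts inside the span of the gene (chr8:88272190-88329965 and chr3:95734147-95739876). That of Mmp13 lies before its gene.
Mmp13: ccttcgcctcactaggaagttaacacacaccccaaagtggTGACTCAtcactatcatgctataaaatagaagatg
Adcy7: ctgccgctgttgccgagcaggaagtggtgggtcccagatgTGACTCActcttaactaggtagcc
Ecm1: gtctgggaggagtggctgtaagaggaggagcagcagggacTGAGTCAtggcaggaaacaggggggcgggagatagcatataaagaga

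The letters GGAATG, the core bound by TEAD factors, which are the DNA-binding partners of YAP, were in 18.0% of windows of fallen genes, 11.1% of risen genes and 12% of all measured genes. In the YAP and SRF list they were in 41.7% of 48 windows, and by gene in 19 of 40 (47.5%). For its fallen members they were in 4 of 6 windows, and by gene in 4 of 5. Median GC content was 54.0% in those 6 windows and 62.3% in the 48 of the list. The part of composition in these shares was not tested. The stretches of Ankrd1, of Tnnc1 and of the epithelial gene Krt14 are shown to set a known YAP target beside a troponin gene of the same list and a gene of another list. Capitals mark GGAATG. They are chr19:36120009-36120094 on the minus strand, chr14:31208214-31208299 on the plus strand and chr11:100206051-100206136 on the minus strand, and the letters begin 210, 58 and 66 bases before the start. The Krt14 stretch belongs to a start inside the span of the gene (chr11:100203162-100207510), while those of Ankrd1 and Tnnc1 lie before their genes.
Ankrd1: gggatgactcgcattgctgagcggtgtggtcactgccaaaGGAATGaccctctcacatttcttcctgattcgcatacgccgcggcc
Tnnc1: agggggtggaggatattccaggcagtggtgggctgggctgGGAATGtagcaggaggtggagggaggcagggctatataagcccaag
Krt14: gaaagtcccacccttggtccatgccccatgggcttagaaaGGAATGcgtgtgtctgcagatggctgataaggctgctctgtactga

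Other letters were about as frequent in fallen genes as in all measured genes. CCAAT was in 35.7% and 37.4% of windows, the nuclear receptor motif AGGTCA in 11.5% and 12.3%, and the E-box CACCTG in 16.8% and 17.4%. For risen genes the shares were 44.4%, 13.9% and 13.9% of 36 windows. A match of letters describes the sequence and does not show that a factor binds there.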

How the data were processed

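Per the labels' protocols, total RNA with an integrity number over 9.5 was labelled from 500 ng with a 3' IVT kit and hybridised to Affymetrix GeneChip mouse genome arrays, 1 per medium. The deposited values of 45101 probe sets, from 0.652 to 13.40, were read as log2 signal from their range. How the authors summarised and normalized them is not given in the sources used here. Array medians were 3.54, 3.57 and 3.54, so a change in total RNA per cell would not be seen.

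Of 45037 probe sets that are not controls, 34945 had 1 symbol in the platform annotation, 932 several and 9160 none here. Each gene took its probe set with the highest mean over the 3 arrays. Values under the 50th percentile (3.54) were raised to it. With 1 array per group no test was run, and 1 array a group sets the precision. All 282 members were found in the GRCm38.p6 RefSeq table, and 2 have clone numbers for names.

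The members and the 42 gene lists were chosen with earlier results of these data known, and small families of genes after their values were seen. Genes named are the 15 largest changes each way above the floor, the 6 largest bounds each way, up to 8 members per direction of each list, and a fixed set of bone genes; other genes named were chosen after their values were seen. These choices were varied: the floor, its removal, the mean of all probe sets, leaving out probe sets ending in _x_at or _s_at, quantile normalization and cyclic loess. Python 3.11.15, numpy 2.4.6, pandas 2.3.3, R 4.3.3 and limma 3.58.1 were used, and the procedure was tested on simulated data.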

Additional observations from a re-analysis of the deposited data

Results flagged for a closer look

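Probe sets without a symbol of their own were not used above, and some of them changed with DMSO as well. Among 9160 probe sets without a name here, 1877 were above the floor on 1 or both compared arrays. Of these, 3 rose and 24 fell 1.5-fold or more, with differences from -2.51 to 1.06. Among 932 probe sets with several symbols, 557 were measured, 1 rose and 12 fell, with differences from -1.51 to 0.64. There is 1 array per group, so no sample could be compared with others of its group.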

How the results depend on the processing

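Across 6 other ways of processing, the count of falls ran from 169 to 274 beside 242, and that of rises from 21 to 57 beside 40. The count of rises moved by more than 1.5 times under 1 of them: with the mean of all probe sets of a gene, 21 genes rose, 20 of them members, and 169 fell, 164 of them members. In every alternative, 18 of the 40 rises and 128 of the 242 falls kept their call. With the floor at the 60th percentile 34 rises and 190 falls kept it, and under quantile normalization 40 and 229. Removing the floor or using cyclic loess lost no member. Of 846 values of 141 named genes under these alternatives, 738 moved by less than the probe spread, 107 moved further and 1 reversed: Apcdd1 stood at -0.037 without probe sets ending in _x_at or _s_at. After seeing the data, 2 alternatives were added: without a floor over the measured genes, 44 rose and 256 fell, and over genes above the floor on both arrays 37 rose and 224 fell. The cause of these shifts was not tested, apart from dim probe sets under the floor drawing a mean towards 0 by construction. No paired analysis was possible because each group had 1 array. Signal over background limits the dim genes, and the spread between cultures is unknown.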
